A study of Lactuca sativa with 32 samples.

Results

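The 100 most abundant leaf transcripts of red oak leaf lettuce (Lactuca sativa) were described over 32 leaf samples, each from a different plant. A gene's level was expressed as CPM, its read count divided by the total count of the sample and multiplied by 1000000. Members were chosen by their mean CPM over all 32 samples, as the 100 highest of 43717 annotated genes, of which 31045 had at least 1 read. Levels, shares and ranks of these genes follow from that choice and are given as descriptions, without a test. The tests concern differences between groups. The choice did not use the group labels, but a gene high in only some groups could enter the list through them. The direction of the members' differences is therefore not independent of the choice.

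Light came from incandescent and ceramic metal halide lamps and passed through clear glass (control) or through a filter of organic photovoltaic (OPV) material, the light-absorbing blend of a semi-transparent solar cell. The 3 blends were PTB7-Th:IEICO-4F, FTAZ:PCBM and FTAZ:IT-M. Glass and filters were each used in a PAR controlled experiment (PC), with adjusted light intensity, and in a height controlled experiment (HC), without the adjustment. PAR is photosynthetically active radiation. This gave 8 groups of 4 plants, all of the same lettuce type and tissue. Boxes held 16 plants until a first harvest at 3 weeks and 8 plants until the final harvest at 5 weeks, and pots were rotated every 2 days. Whether leaf was taken at the first or the final harvest is not given in the sources used here. Experiment goes with any difference in growth date or lamp setting, and cover goes with growth box, so these cannot be told apart from the groups. Library numbers in the file headers ran in blocks by group, and library order likewise cannot be told apart from group. Only the numbers of PC FTAZ:PCBM replicates 2 and 3 carried a suffix (26b and 27b).

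A leaf is mostly photosynthetic tissue, and messenger RNA of nuclear photosynthesis genes, such as those for the small subunit of Rubisco and the chlorophyll-binding proteins, is commonly among the most abundant in green leaves. Many such transcripts are known to follow light and the time of day. The files and the RefSeq gene table pair the identifiers of lettuce with no product name, so none of the members is given a role here, and the labelled tissue could not be checked against leaf markers. In bulk leaf RNA, fewer cells of a type and less RNA per cell cannot be told apart. Members are therefore described by identifier, position on the Lsat_Salinas_v7 assembly, gene model and level.

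Total counts per sample ranged from 47289413 to 48764530. The lowest count of a member in any sample was 12688 reads, for which counting error alone is 0.888% of the value, and the highest was 949292. Each plant gave 1 library, so the spread between samples holds plant and library preparation together, and these cannot be told apart. All 100 members passed the filter on low counts, which left 24483 genes in the tests. Reads that map to several places were not counted, so a gene with a near-identical copy is undercounted and could fall short of the list.

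LOC111917913 was the most abundant transcript in all 32 samples. This gene on the minus strand of scaffold NW_019677377.1 (3134075 to 3135920) has 832 bp of exon sequence in 3 exons. Its mean was 14986 CPM, with a range of 9852 to 19791 CPM, and it took 1.499% of all counts. It was also first per length, at 25687 ± 4012 length-scaled CPM (SD, n = 32), a scale that divides counts by exonic length before scaling to 1000000. On that scale LOC111884730 followed at 8862 ± 971 and LOC111902212 at 7270 ± 873 (SD, n = 32 each). Per length, the first gene thus stood well above the next ones.

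By counts, LOC111910617 (NW_019675779.1, 162054 to 164699, plus strand) came second in 27 samples and came just after in the other 5, with a mean of 8578 CPM. LOC111906083 followed with a mean of 6671 CPM and took second place in 4 samples. The next places by mean level went to LOC111878431 (5096 CPM), LOC111914553 (4466 CPM), LOC111891035 (4159 CPM) and LOC111884003 (3961 CPM). LOC111884730 (3832 CPM), LOC111908249 (3655 CPM) and LOC111913347 (3526 CPM) completed the first 10. Of these, LOC111884003 varied most in rank, from 4 to 51 over the samples. Only 3 genes were among the first 10 in all 32 samples, and 20 genes were among the first 10 in at least 1. At the end of the list the levels ran on without a step. LOC111891706 and LOC111894101 held ranks 99 and 100 at 945.8 and 939.5 CPM, and LOC111915340 and LOC111916739 stood just outside at 933.6 and 911.2 CPM.

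**Figure D1:**
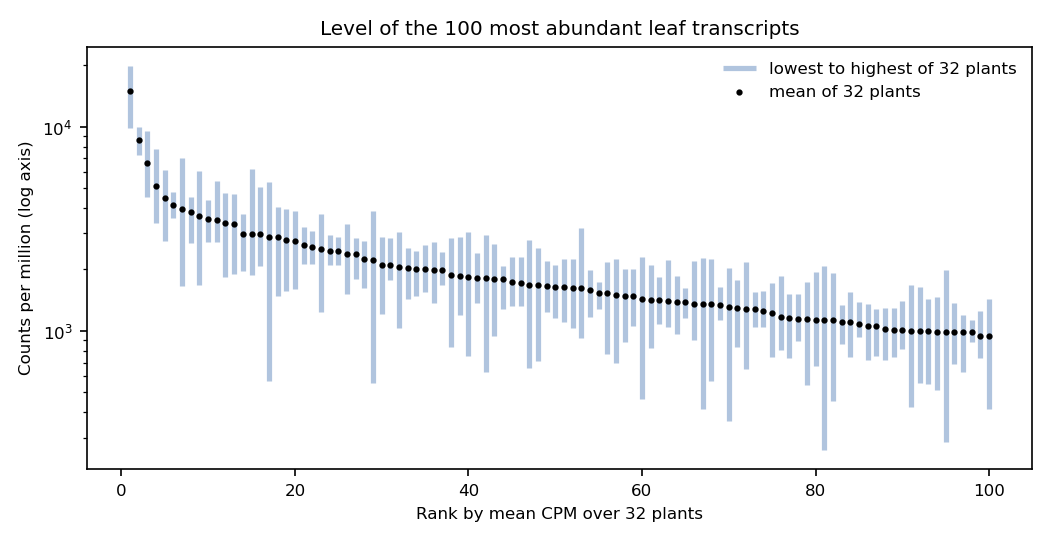
Mean CPM of the 100 members by rank (points, n = 32 plants) with the lowest and highest plant (bars), on a log axis. The first gene stands apart at 14986 CPM, the levels fall without a step to 939.5 CPM at rank 100, and the bars of neighbouring ranks overlap widely.

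The members together took 21.2% ± 1.97 (SD, n = 32) of all counts, with a range of 18.3% to 24.3%. The first 10 took 5.89% ± 0.428 and the first 50 took 15.04% ± 1.53 (SD, n = 32 each). In PC the share of all 100 was 20.3% ± 1.43 under glass, 20.9% ± 1.83 under FTAZ:IT-M, 19.5% ± 1.12 under FTAZ:PCBM and 18.4% ± 0.0534 under PTB7-Th:IEICO-4F (SD, n = 4 each). The 4 plants of PC PTB7-Th:IEICO-4F lay between 18.3% and 18.4%, all below the lowest PC control plant at 18.8%. This separation holds for the fixed list. Each plant's own 100 highest genes took 18.94% to 19.42% in PC PTB7-Th:IEICO-4F and 19.33% to 22.03% in the PC control. Those ranges overlapped, with means of 19.24% and 20.57%. In HC the share of the 100 members was 21.9% ± 0.721 under glass, 23.3% ± 1.06 under FTAZ:IT-M, 22.7% ± 1.15 under FTAZ:PCBM and 22.8% ± 1.44 under PTB7-Th:IEICO-4F (SD, n = 4 each). Every HC filter group overlapped the HC control, which ranged from 21.3% to 22.9%. Over the 4 covers the share was 19.8% ± 1.497 in PC and 22.7% ± 1.12 in HC (SD, n = 16 each), and the ranges met, since the highest PC plant had 22.7% and the lowest HC plant 21.1%.

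The gain of 2.90 percentage points from PC to HC was the balance of 59 members with a higher mean CPM, which added 4.24 points, and 41 with a lower one, which took away 1.35 points. LOC111917913 alone added 0.329 points, and the 10 members that gained most added 1.82 points. In PC PTB7-Th:IEICO-4F the share was 1.88 points below the control mean, and 74 members had a lower mean CPM there. The members called lower by the test below accounted for 0.844 points of that deficit.

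**Figure D2:**
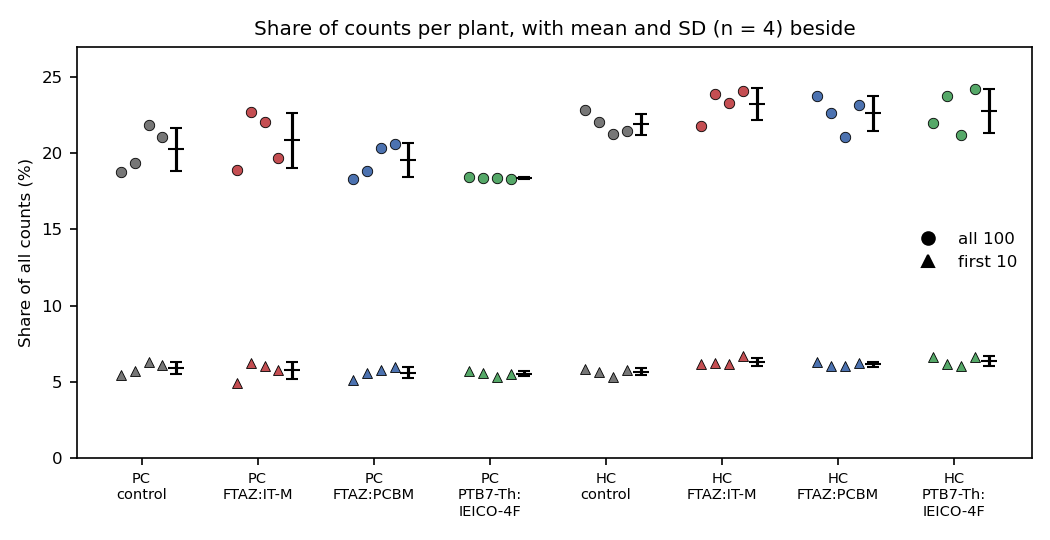
Share of all counts (%) taken by the 100 members (circles) and by the first 10 (triangles) in each plant, by group, with the group mean and SD (n = 4) beside the points. PC PTB7-Th:IEICO-4F sits lowest at 18.3% to 18.4%, and the HC groups sit higher, from 21.1% to 24.3%.

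Rank order was held more by some groups than by others. In the HC groups, 92 to 97 of the members were among the 100 highest genes of the group itself, while the PC control, PC FTAZ:IT-M and PC FTAZ:PCBM held 90 each and PC PTB7-Th:IEICO-4F held 81. A core of 67 members was among the first 100 in all 8 groups, and 54 in all 32 samples. Widened to the first 200 genes, 92 members were present in every sample. From outside the list, 36 genes entered the first 100 of at least 1 group. Spearman's rho of the members' ranks between pairs of groups ran from 0.479 to 0.984 over 28 pairs, given as a description since the genes share their libraries.

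Members varied more between plants than genes of lower rank. The coefficient of variation (CV, SD divided by mean) of CPM over the 32 plants had a median of 19.7% among members (7.62% to 52.8%), against 14.2% for the next 900 genes by mean CPM and 12.7% for the 4000 after those. The ratio of the highest to the lowest group mean had a median of 1.61 among members, against 1.40 and 1.35 in those sets. It was under 1.5 for 42 members, from 1.5 to 2 for 24 and at least 2 for 34. The share of a member's variance of log2 CPM that lay between the 8 groups had a median of 73.2%, and the share between the experiments a median of 42.02%, against 28.6% for the next 900 genes. The spread within groups was also wider, with a median SD of 0.17 on the log2 scale among members and 0.13 among the next 900 genes. PC PTB7-Th:IEICO-4F was the group with the lowest mean for 45 members, and HC FTAZ:IT-M the group with the highest for 36.

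The steadiest member by CV was LOC111891035, at 7.62%, with group medians close together in both experiments. Its CPM was 3861, 4147, 4206 and 4718 in the PC control plants, 3559, 3595, 4059 and 4271 under PC PTB7-Th:IEICO-4F, and 3778, 3996, 4305 and 4322 in the HC control plants. These groups overlapped. LOC111899388 (CV 7.68%) and LOC111914201 (CV 7.91%) followed. At the other end stood LOC111888054 (CV 52.8%), LOC111878096 (49.8%) and LOC111908250 (49.8%), all of them high in HC and low in PC.

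The members' gene models were shorter than those of other expressed genes. Exonic length had a median of 1299 bp (566 to 5347 bp), against 1638 bp for the 20330 genes whose mean CPM reached 1. The median number of exon blocks was 4 against 5, and 12 members had a single exon, a share of 12% beside 11.4% of the expressed genes. Exons of 7 members overlapped a gene on the other strand by 48 to 213 bp. With unstranded counts, reads from such a pair cannot be told apart where they overlap, and by its defaults featureCounts leaves out reads that touch both. A RefSeq gene table of the Lsat_Salinas_v11 assembly listed 99 of the members, 98 as protein coding and LOC111910599 as a long noncoding RNA.

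Members lay on 88 scaffolds, and 10 scaffolds held at least 2. A single pair had no other gene between them: LOC111888029 (NW_019681068.1, 524832 to 525771, plus strand) and LOC111888054 (567062 to 568000, minus strand), which are 41290 bp apart and have 1 exon each, of 940 and 939 bp. Their log2 CPM correlated with r = 0.977 over the 32 plants, a description over plants that share the contrast of experiments. LOC111908250 and LOC111908249 on NW_019675086.1, with 3 genes between them, had r = 0.903. Closeness alone did not go with a high correlation, as LOC111878431 and LOC111878432, 7553 bp apart, had r = 0.355.

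Most calls among the members came from the comparison of the experiments. HC was compared with PC over all 4 covers by the quasi-likelihood test of edgeR. A gene counts as called where its adjusted p is under 0.05 (Benjamini-Hochberg, over all 24483 genes). This called 73 of the 100 members, 51 higher and 22 lower in HC, beside 57.9% of all tested genes, which split evenly (29.3% higher and 28.5% lower). Of the next 900 genes by level, 69.7% were called. The median log2 fold change of the members was 0.16, beside 0.00 for all tested genes, and the median size without sign was 0.33 beside 0.20. Fold changes rest on TMM scaling, which corrects for the share that abundant genes take, so they can differ from ratios of CPM. Under clear glass alone, 50 members were called, 32 higher and 18 lower in HC, beside 32.2% of all tested genes (16.1% in each direction). All 50 were called the same way over the 4 covers, a comparison that includes the same plants. Between the controls, 54 members had groups without overlap, beside 31.8% of all tested genes. The list held 92 to 97 of the first 100 genes of each HC group, but 81 to 90 of those of each PC group. The split of directions in both comparisons is thus not independent of how the members were chosen.

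LOC111888054 rose most from PC to HC. Under clear glass its CPM was 1044, 1269.5, 1979.7 and 2236 in the PC plants and 3719.9, 4594, 4654 and 4691 in the HC plants. Every HC control plant lay above every PC control plant. The log2 fold change between the controls was 1.44 (SE 0.26), at an edgeR adjusted p of 0.000111. Over the 4 covers the log2 fold change came to 1.55 (SE 0.13) with an edgeR adjusted p of 9.25e-11. It held rank 4 in its best sample and rank 170 in its worst.

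LOC111878096 (NW_019678776.1, 919394 to 920668, plus strand) moved with it. The PC control plants had 969, 1164, 1598 and 1962 CPM and the HC control plants 2842, 3119, 3332 and 3458 CPM, again without overlap. Over the 4 covers the log2 fold change was 1.44 (SE 0.12), with an edgeR adjusted p of 1.05e-10. LOC111888029, the neighbour of LOC111888054, had a log2 fold change of 1.21 (SE 0.11) over the covers (edgeR adjusted p of 4.52e-10). LOC111877910 was among the largest rises under clear glass, where the PC plants had 501, 569, 667 and 741 CPM and the HC plants 1184, 1276, 1338 and 1545 CPM, a log2 fold change of 1.11 (SE 0.20) (edgeR adjusted p of 0.000115).

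Falls from PC to HC were smaller. LOC111912801 (NW_019672251.1, 2575033 to 2576856, minus strand) had 1229, 1273, 1278 and 1310.0 CPM in the PC control plants and 558, 615, 694 and 761 CPM in the HC control plants. The groups did not overlap, and the log2 fold change over the 4 covers was −0.72 (SE 0.06), with an edgeR adjusted p of 9.81e-11. LOC111896763 fell by a log2 value of 1.02 (SE 0.15) between the controls, from 1947, 2155, 2207 and 2509 CPM to 927, 985, 1122 and 1272 CPM, with an edgeR adjusted p of 1.25e-05. LOC111890922 had a log2 fold change of −0.61 (SE 0.06) over the covers (edgeR adjusted p of 1.42e-09), but the covers differed. Its HC minus PC difference in mean log2 CPM was −0.60 under glass and −1.30 under FTAZ:IT-M. It was −0.56 under FTAZ:PCBM and 0.07 under PTB7-Th:IEICO-4F. LOC111884003, the seventh gene by level, had 3880.4, 4254, 5092 and 5719 CPM in the PC control and 1867, 2619, 2796 and 2826 CPM in the HC control. Its log2 fold change between the controls was −0.89 (SE 0.30), and its edgeR adjusted p of 0.0236 rose to 0.0879 at most when single plants were left out, with the call lost without PC control replicate 1 or 2 or HC control replicate 3.

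The first gene, LOC111917913, was also higher in HC. Its lowest, median and highest CPM were 9852, 12896 and 18469 in the 16 PC plants and 13734, 16541 and 19791 in the 16 HC plants, so the experiments overlapped. Its log2 fold change over the covers was 0.36 (SE 0.08) with an edgeR adjusted p of 0.000384. Between the controls it was 0.06 (SE 0.16), with an edgeR adjusted p of 0.791. By cover, the HC minus PC difference in mean log2 CPM was 0.08 under glass and 0.38 under FTAZ:IT-M. It was 0.46 under FTAZ:PCBM and 0.57 under PTB7-Th:IEICO-4F. The second gene, LOC111910617, was called in neither comparison of the experiments. Its lowest, median and highest CPM were 7303, 8256 and 9932 in PC and 7719, 8703 and 9849 in HC.

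The direction was also read cover by cover, in pairs of groups that share no plant. All of these plants entered the choice of the members, so the split of directions is not independent of that choice. The HC minus PC difference had the same sign under all 4 covers for 59 members, 47 higher and 12 lower in HC, beside 45.1% of all tested genes (22.5% higher and 22.6% lower). Every HC plant lay above every PC plant for 1 member, LOC111892466, beside 0.319% of all tested genes. Its lowest, median and highest CPM were 1604, 2084 and 2633 in PC and 2714, 3413 and 3885 in HC. This gene was singled out after its values were seen. No member had every HC plant below every PC plant.

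**Figure D3:**
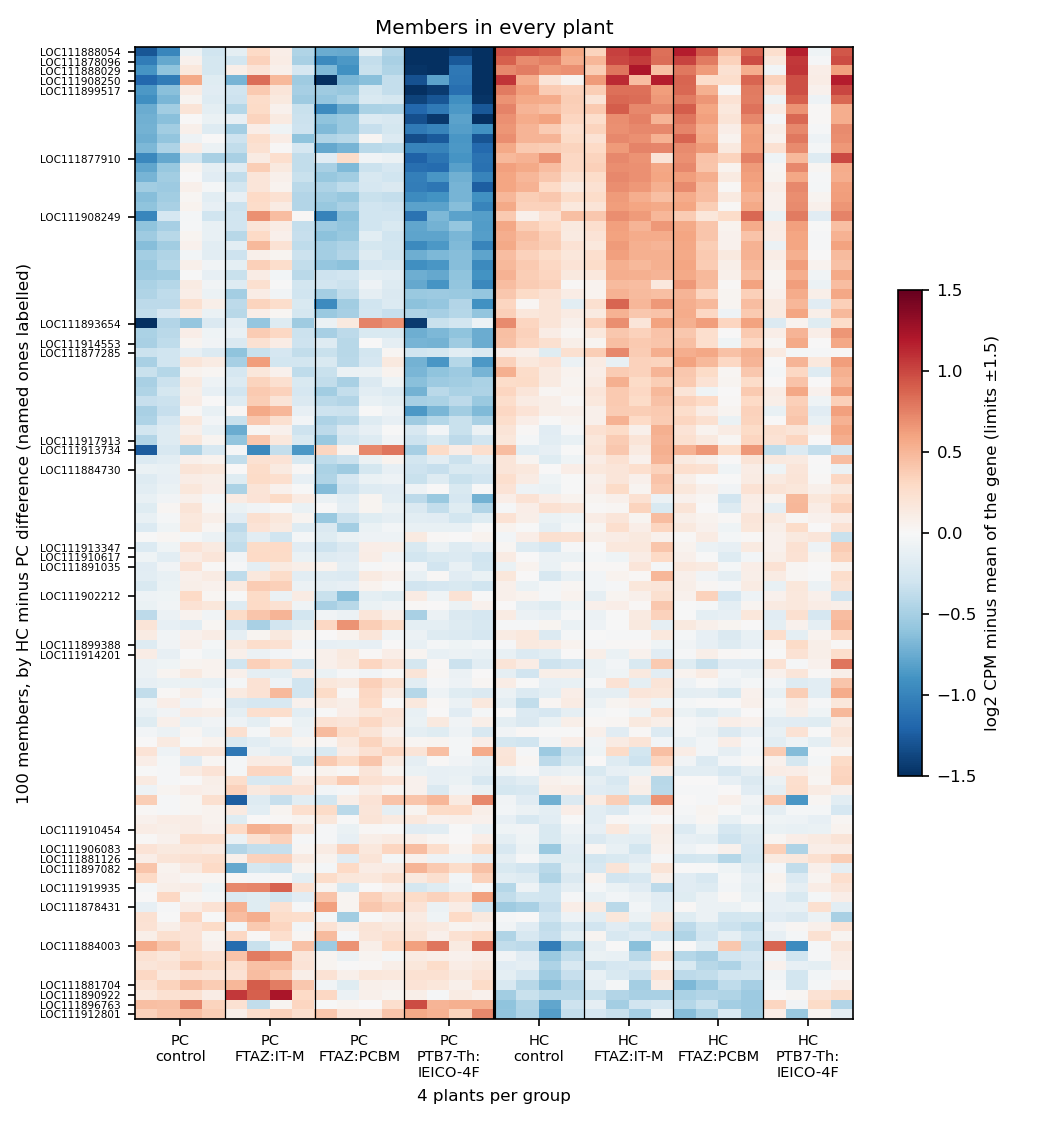
Log2 CPM of each member minus its mean over the 32 plants (colour, limits ±1.5), with 1 column per plant in 8 groups and the members ordered by their HC minus PC difference over the 4 covers. A block of members at the top is low in PC, lowest in PC PTB7-Th:IEICO-4F and high in HC, and a smaller block at the bottom is higher in PC.

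Many of the members that were high in HC varied together between plants. Log2 CPM of 30 members correlated with that of LOC111888054 at r of at least 0.9 over the 32 plants. The closest were LOC111878096 (r = 0.992), LOC111918291 (0.991) and LOC111891628 (0.989), and the lowest values were those of LOC111912801 (−0.870) and LOC111896763 (−0.833). Among all 4950 pairs of members the median r was 0.177, 16.3% of pairs had r of at least 0.8 and 0.727% had r of −0.8 or lower. These values are a description, since all pairs share the libraries and the contrast of experiments. LOC111890922 moved most like LOC111919935 (r = 0.890).

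Under adjusted light intensity, 17 members were lower behind PTB7-Th:IEICO-4F than behind glass and none was called higher, beside 3.35% of all tested genes (2.46% lower and 0.886% higher) and 5.89% of the next 900 genes by level. The median log2 fold change of the members was −0.18, beside 0.00 for all tested genes. Of the members, 79 lay below 0, and 51 had an unadjusted p under 0.05 by edgeR. The matching shares of all tested genes are not given here. Many members varied together, so such counts do not rest on independent genes. The list left out 19 of this filter group's own first 100 genes, against 10 of those of the PC control. The split of directions is thus not independent of how the members were chosen. The 17 members had a median exonic length of 929 bp (566 to 1306 bp), shorter than the 1299 bp of all members. All 17 stayed called when each sample was given an offset fitted on gene length. One of them, LOC111895560, overlaps a gene on the other strand.

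LOC111888054 fell most, from 1044, 1269.5, 1979.7 and 2236 CPM in the PC control plants to 569, 649, 671 and 953 CPM under the filter. The groups did not overlap, and the log2 fold change was −1.26 (SE 0.26), with an edgeR adjusted p of 0.0052. LOC111878096 had 558, 564, 640.0 and 837 CPM under the filter, all below its control plants, and a log2 fold change of −1.19 (SE 0.24) (edgeR adjusted p of 0.0051). For LOC111888029 the filter plants had 285, 311, 336 and 441 CPM and the control plants 499, 598, 738 and 967 CPM, with a log2 fold change of −1.09 (SE 0.22) (edgeR adjusted p of 0.0051). These are the 3 members that also rose most from PC to HC over the covers, a comparison that includes the same plants.

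The other 14 called members fell by log2 values from 0.44 (LOC111899879) to 1.09 (LOC111899517), and the groups of 13 of them did not overlap. The exception was LOC111891628. Among all members, called or not, 37 had groups without overlap in this comparison, beside 14.2% of all tested genes. The count of 17 moved when single plants were left out. It was 4 without PC control replicate 3, 6 without PC control replicate 4, 9 without PTB7-Th:IEICO-4F replicate 1 or replicate 2, and 4 without PTB7-Th:IEICO-4F replicate 4. With DESeq2's Wald test it was 30, 29 of them lower, beside 5.61% of all genes called by that test. The calls of LOC111888054, LOC111878096 and LOC111888029 held in all 15 alternatives. The share of all tested genes called without a plant is not given here.

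Read in HC, in plants that share no sample with PC, the same 17 members gave 14 values below 0 and 3 above against the HC control. Their median log2 fold change was −0.07 there, beside −0.78 in PC, and none was called. In HC itself PTB7-Th:IEICO-4F called 5 members, all higher, beside 3.83% of all tested genes (2.26% higher and 1.57% lower). None of these 5 was called in PC, where 2 lay above 0 and 3 below. In this HC comparison, 7 members had groups without overlap, beside 8.48% of all tested genes.

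LOC111890922 (NW_019681808.1, 5390005 to 5392240, minus strand) was the clearest of the 5 by its adjusted p. The HC control plants had 1913, 2164, 2196 and 2239 CPM and the plants under HC PTB7-Th:IEICO-4F 2739, 2849, 3152 and 3347 CPM. The groups did not overlap, and the log2 fold change was 0.56 (SE 0.12) with an edgeR adjusted p of 0.00806. LOC111881126 had 2091, 2122, 2149.8 and 2319.9 CPM in the control and 2507, 2597, 2766 and 2833 CPM under the filter, also without overlap. Its log2 fold change was 0.36 (SE 0.08) at an edgeR adjusted p of 0.0163 that ran from 0.000746 to 0.146 over its alternatives. LOC111896763 (0.59, SE 0.15), LOC111912801 (0.43, SE 0.12) and LOC111914201 (0.26, SE 0.07) were the others in log2 fold change, and their groups overlapped. The count of 5 fell to 0 when only the HC control and this filter group were modelled. It fell to 1 without HC PTB7-Th:IEICO-4F replicate 3 or without HC control replicate 1 or 3, to 2 without HC PTB7-Th:IEICO-4F replicate 4, and to 3 without HC PTB7-Th:IEICO-4F replicate 1 or HC control replicate 2.

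FTAZ:PCBM called 12 members in PC, 7 higher and 5 lower, beside 15.7% of all tested genes (9.31% higher and 6.4% lower) and 23.6% of the next 900 genes by level. The members were thus called no more often than other genes. Groups without overlap were found for 18 members, beside 18.8% of all tested genes. LOC111893654 (NW_019682479.1, 568781 to 573725, minus strand) rose from 363, 806, 939 and 1063 CPM in the PC control plants to 1172, 1406, 1990.0 and 2025 CPM. The groups did not overlap, and the log2 fold change was 1.07 (SE 0.26) with an edgeR adjusted p of 0.00556. LOC111913734 had 569, 912, 1092 and 1126 CPM in the control and 1379, 1633, 2096 and 2250.4 CPM under the filter. It too was without overlap, at a log2 fold change of 1.00 (SE 0.21) (edgeR adjusted p of 0.00208). LOC111877910 rose by 0.61 (SE 0.20) in log2 fold change, and its call was lost without PC control replicate 1 or 2 or FTAZ:PCBM replicate 2 or 3.

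LOC111884730, the second gene per length, fell under PC FTAZ:PCBM. It had 3635, 3710.1, 4258 and 4298 CPM in the control and 2708, 2778, 3130.1 and 3492 CPM under the filter. The groups did not overlap, and its log2 fold change was −0.38 (SE 0.10) at an edgeR adjusted p of 0.00828. LOC111881704 (−0.37, SE 0.12) and LOC111902212 (−0.37, SE 0.12) also fell in log2 fold change, and their calls were lost in 6 and 8 of 15 alternatives. The direction of these calls went with gene length. Median exonic length was 2859 bp (1418 to 3440 bp) for the 7 that rose and 961 bp (586 to 1513 bp) for the 5 that fell. With an offset fitted on gene length, 4 of the 7 and none of the 5 stayed called. Those 4 were LOC111902198, LOC111913734, LOC111893654 and LOC111877910. The count of 12 was 6 or 7 without PC control replicate 3 or 4, and 6 without FTAZ:PCBM replicate 1 or 2.

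FTAZ:IT-M called 5 members in PC, 3 higher and 2 lower, beside 7.26% of all tested genes (4.03% higher and 3.23% lower). Groups without overlap were found for 12 members, beside 10.95% of all tested genes. LOC111890922, which also rose under PTB7-Th:IEICO-4F in HC, was the only member called in more than 1 filter comparison. Its CPM was 3053, 3243, 3319 and 3419 in the PC control plants and 3597, 4955, 5949 and 6229.9 under PC FTAZ:IT-M, without overlap. The log2 fold change was 0.73 (SE 0.12), with an edgeR adjusted p of 0.000502. LOC111919935 (NW_019672358.1, 320195 to 322091, plus strand) had 2797, 2982, 3078 and 3207 CPM in the control and 3541, 4578, 4819 and 5073 CPM under the filter. Those groups did not overlap either, and its log2 fold change was 0.63 (SE 0.11) (edgeR adjusted p of 0.000856). LOC111910454 rose less, at 0.29 (SE 0.08), and its call was lost in 6 of 15 alternatives, 5 of which left out 1 plant (FTAZ:IT-M replicate 2 or 3, or PC control replicate 1, 2 or 4).

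The members that fell under PC FTAZ:IT-M were LOC111897082 and LOC111906083. LOC111897082 had 1496, 1497, 1720.1 and 1950.1 CPM in the PC control and 821, 1061, 1094 and 1483 CPM under the filter, a log2 fold change of −0.53 (SE 0.13) (edgeR adjusted p of 0.0112). That p ran from 0.0011 to 0.11 over its alternatives, and the call was lost without PC control replicate 1. LOC111906083, the gene after LOC111910617 by level, had 7176, 7197, 7501 and 7902 CPM and 4833, 4856, 4864 and 6911 CPM. Its groups did not overlap, but its log2 fold change of −0.43 (SE 0.13) was near the threshold, with an edgeR adjusted p of 0.0485, and the call was lost in 10 of 15 alternatives. The count of 5 was 15 without FTAZ:IT-M replicate 4, 3 without FTAZ:IT-M replicate 2 or 3, 2 without PC control replicate 1, and 3 without PC control replicate 2 or 4. When only the PC control and this filter group were modelled it was 0.

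In HC, FTAZ:IT-M called 0 of the 100 members by edgeR's quasi-likelihood test, beside 0% of all tested genes. By edgeR, 11 members had an unadjusted p under 0.05, and DESeq2's Wald test called 1, beside 0.0939% of all genes. The members' log2 fold changes ran from −0.10 to 0.52, with a median of 0.13, beside 0.00 for all tested genes. Of the members, 87 lay above 0, but many of them varied together. The shares of all tested genes above 0 or with an unadjusted p under 0.05 are not given here for the HC FTAZ comparisons. HC FTAZ:PCBM also called 0 members by edgeR, beside 0.0327% of all tested genes (0.00408% higher and 0.0286% lower). An unadjusted p under 0.05 was found for 4 members by edgeR, and DESeq2's Wald test called 1, beside 0.172% of all genes. Without HC control replicate 4, edgeR called 1. Its values ran from −0.20 to 0.56. The half-width of a member's 95% interval was 0.26 in the median in both comparisons. A typical interval thus reached that far to either side of the member's own log2 fold change, with a spread estimated over all 8 groups. The members are therefore not shown to be unchanged.

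**Figure D4:**
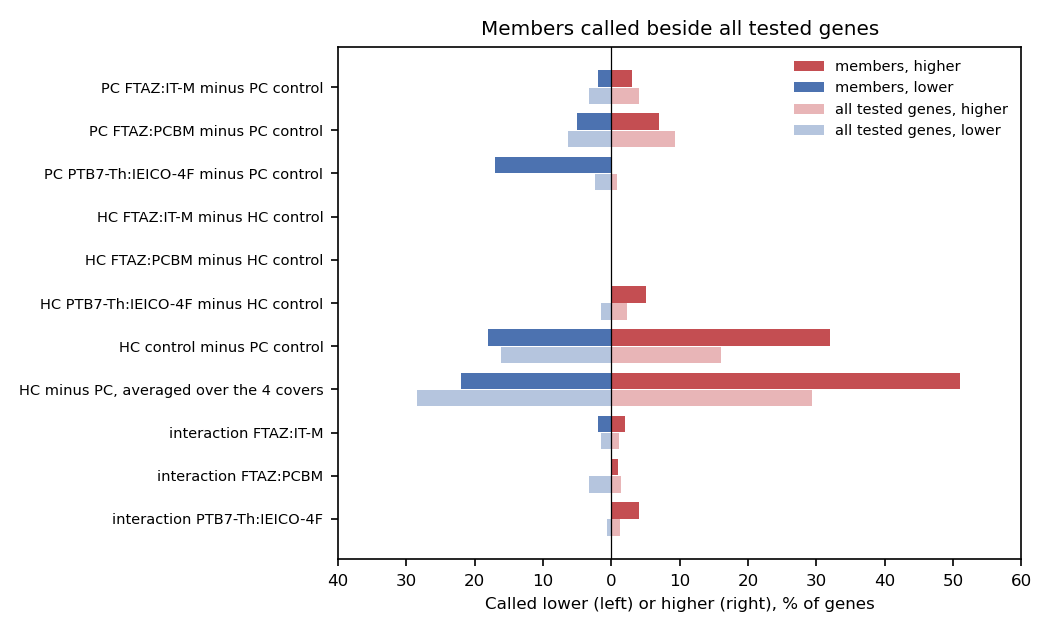
Members called lower (left) or higher (right) in each comparison, as a percentage of the 100 members (dark bars), beside the percentage of all 24483 tested genes (pale bars); interactions are HC effect minus PC effect. The 17 members called lower under PC PTB7-Th:IEICO-4F stand beside 2.46% of all tested genes, and the HC FTAZ comparisons show no called member.

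Whether a filter acted differently in the experiments was tested as an interaction, the log2 fold change in HC minus that in PC. For PTB7-Th:IEICO-4F this called 4 members, all with the larger value in HC, beside 2% of all tested genes (1.32% with the larger value in HC and 0.674% with the smaller). For FTAZ:IT-M it called 4 members, 2 in each direction, beside 2.65% (1.17% and 1.48%). For FTAZ:PCBM it called 1 member, with the larger value in HC, beside 4.6% (1.38% and 3.23%). Under PTB7-Th:IEICO-4F, 87 members had a positive interaction and the median was 0.39, beside 0.02 for all tested genes. The share of all tested genes with a positive value is not given here. The list held 81 of the first 100 genes of PC PTB7-Th:IEICO-4F and 97 of those of HC PTB7-Th:IEICO-4F. The sign of this interaction is thus not independent of how the members were chosen.

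LOC111899517 (NW_019673296.1, 1038109 to 1039175, plus strand) had the largest called interaction, under PTB7-Th:IEICO-4F. In PC it had 708, 819, 1089 and 1309.8 CPM in the control and 416, 447, 473 and 592 CPM under the filter, and in HC 1593, 1645, 1892 and 2050.0 CPM and 1303, 1417, 2233 and 2287 CPM. The filter group lay below its control in PC and overlapped it in HC. The interaction was 1.17 (SE 0.32), with an edgeR adjusted p of 0.0471, and the call was lost in 15 of 23 alternatives. LOC111881126 (0.60, SE 0.12), LOC111890922 (0.68, SE 0.17) and LOC111899879 (0.58, SE 0.14) were the other members called.

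Under FTAZ:IT-M, LOC111890922 had a negative interaction of −0.74 (SE 0.17) with an edgeR adjusted p of 0.0173. It had risen in PC, while in HC the filter plants had 1896, 1967, 2000.1 and 2251 CPM and overlapped the control. LOC111897082 had an interaction of 0.82 (SE 0.18) (edgeR adjusted p of 0.0142). Its HC plants had 1088, 1142, 1155 and 1294 CPM in the control and 1185, 1265, 1499.7 and 1530.1 CPM under the filter, which overlapped. LOC111919935 (−0.58, SE 0.16) and LOC111877285 (0.59, SE 0.14) were the other members called. LOC111877285 was also the member called under FTAZ:PCBM, at 0.47 (SE 0.14) with an edgeR adjusted p of 0.0479. These interactions share the control plants of both experiments. The FTAZ:PCBM call was lost in 16 of 23 alternatives.

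The counts of interactions moved when single plants were left out. The share of all tested genes called in these fits is not given here. For PTB7-Th:IEICO-4F the 4 became 1 without PC control replicate 3, PC PTB7-Th:IEICO-4F replicate 2 or 4, or HC control replicate 3 or 4, and 2 without PC control replicate 2, HC control replicate 1 or HC PTB7-Th:IEICO-4F replicate 2 or 4. For FTAZ:IT-M the 4 became 2 without PC FTAZ:IT-M replicate 1, HC control replicate 3 or HC FTAZ:IT-M replicate 2, and 8 without PC FTAZ:IT-M replicate 4. For FTAZ:PCBM the single call was kept without PC control replicate 1 or HC control replicate 4, became 3 calls without PC FTAZ:PCBM replicate 4, and became 0 without any other plant of these groups.

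**Figure D5:**
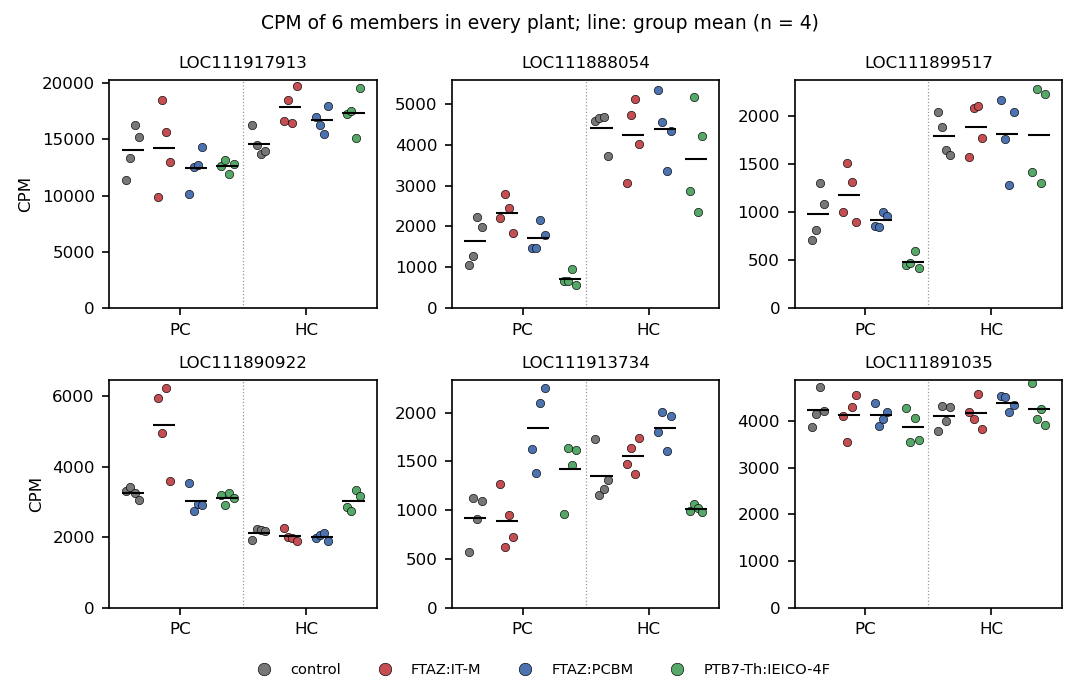
CPM of 6 members in every plant, with the group mean as a line (n = 4); PC groups stand left of the dotted line and HC groups right, coloured by cover. LOC111888054 and LOC111899517 are lowest in PC PTB7-Th:IEICO-4F, LOC111890922 is highest in PC FTAZ:IT-M, LOC111913734 is high under FTAZ:PCBM, and LOC111891035 is level.

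Over the 6 filter comparisons, 62 members were called in none, 37 in 1 and 1 in 2, beside 74.1%, 21.9% and 3.93% (2 or more) of all tested genes. With the comparisons of the experiments counted too, 20 members were called in none of the 6 filter comparisons, between the controls or over the 4 covers, beside 32.2% of all tested genes. These 20 members had a CV of 7.62% to 27.8% with a median of 10.7%, and a highest group mean 1.10 to 1.98 times the lowest. They included LOC111910617, LOC111891035 and LOC111913347 of the first 10. A member that was not called is not thereby shown to be unchanged. For LOC111891035 the widest 95% interval of any of these comparisons reached 0.36 on the log2 scale, and for LOC111910617 it reached 0.49.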

How the data were processed

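Messenger RNA of lettuce leaf was sequenced from 32 plants, as poly-A libraries pooled on 3 lanes (source: the labels' protocols). Per the file headers, the authors counted reads by gene with featureCounts 2.0.1 and deposited these counts without normalization. They counted over exons of the RefSeq annotation of Lsat_Salinas_v7, with no option for strand, read pairs or multi-mapping reads. FastQC, HISAT2, featureCounts and DESeq2 are named in the submitters' processing notes without versions. Trimming is not given in the sources used here. Groups came from the labels, which spell the PTB7-Th blend in more than 1 way, so the characteristics entry was used.

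CPM was computed from the full count of each sample. Counts of all 32 samples were fitted in a single edgeR 4.0.16 model with a mean per group (R 4.3.3, limma 3.58.1), after filterByExpr by group (minimum count 10, minimum total 15) and TMM scaling. Genes were called at a Benjamini-Hochberg adjusted p under 0.05 over 24483 genes. The SE of a log2 fold change was derived from its F statistic. Log2 CPM used a prior count of 2. Figures and joins used Python 3.11.15, pandas 2.3.3 and matplotlib 3.10.9. The fit was tested on simulated data.

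Named genes are the 10 highest by mean CPM, up to 3 called rises and 3 called falls per comparison without overlap of the groups (no such condition over the 4 covers), the largest interaction in each direction, the 3 lowest and 3 highest by CV, and ranks 99 to 102. Other genes were named where a count was small, after their values were seen. Members, lists and tests were chosen with earlier results of these data known. Alternatives were DESeq2's size factors, no filter, DESeq2's Wald test (DESeq2 1.42.0), a mean CPM of at least 5, a gene length offset (lowess, span 0.5), only the groups compared, a replicate block, other rankings, and leaving out each plant. RefSeq's Lsat_Salinas_v11 table gave biotypes only, and none of its coordinates were used.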

Additional observations from a re-analysis of the deposited data

Results flagged for a closer look

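An interaction was called for 4 members under FTAZ:IT-M, 1 under FTAZ:PCBM and 4 under PTB7-Th:IEICO-4F, by edgeR's test at an adjusted p under 0.05. Of all tested genes, 2.65%, 4.6% and 2% were called in the same order. The FTAZ:PCBM call was lost in 16 of 23 alternatives and that of LOC111899517 in 15 of 23. The largest values were 0.82 for LOC111897082 and −0.74 for LOC111890922 under FTAZ:IT-M, 0.47 for LOC111877285 under FTAZ:PCBM and 1.17 for LOC111899517 under PTB7-Th:IEICO-4F (log2, HC effect minus PC effect).

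In 15 of 248 combinations of an item examined and a group, 1 plant stood apart from the other 3, against 12.4 that chance gives at the 5% level. Each of these 15 concerned a named member. The gap to the nearest plant, as a share of the range of the group, is given for each. LOC111906083 in PC FTAZ:IT-M had the widest, 0.985, where replicate 4 had 6911 CPM and the others 4833 to 4864 CPM. That plant lay nearer to the PC control than the other plants did. Of the members that fell or rose in a comparison, LOC111896763 had a gap of 0.920 in PC PTB7-Th:IEICO-4F (replicate 1, high), LOC111888054 of 0.901 in the HC control (replicate 4, low) and LOC111877910 of 0.856 in PC FTAZ:PCBM (replicate 2, high).

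LOC111902212 stood out in both experiments, with 0.917 in HC PTB7-Th:IEICO-4F (replicate 4, low) and 0.833 in the PC control (replicate 3, high). So did LOC111910454, with 0.864 in HC FTAZ:PCBM (replicate 2, high) and 0.847 in PC FTAZ:PCBM (replicate 2, low). In HC FTAZ:PCBM, LOC111897082 had 0.895 (replicate 4, low) and LOC111919935 had 0.893 (replicate 3, high). In HC FTAZ:IT-M, LOC111884003 had 0.840 (replicate 3, low) and LOC111899388 had 0.832 (replicate 4, low). The rest were LOC111881704 in HC PTB7-Th:IEICO-4F at 0.899 (replicate 2, low), LOC111914201 in the PC control at 0.861 (replicate 1, high) and LOC111877285 in PC FTAZ:PCBM at 0.840 (replicate 4, high).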

How the results depend on the processing

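Counts of members called moved by over 1.5 times as follows. With DESeq2's Wald test they were 10 for PC FTAZ:IT-M, 30 for PC PTB7-Th:IEICO-4F, 1 for HC FTAZ:IT-M, 1 for HC FTAZ:PCBM and 9 for HC PTB7-Th:IEICO-4F, and 9, 3 and 12 for the interactions (FTAZ:IT-M first, then FTAZ:PCBM, then PTB7-Th:IEICO-4F). Of all genes, that test called 10.2%, 5.61%, 0.0939%, 0.172% and 6.08% in these comparisons as listed. For the interactions it called 5.35%, 7.4% and 3.8%. When only the groups compared were modelled they were 0 for PC FTAZ:IT-M, 0 for HC PTB7-Th:IEICO-4F and 0, 2 and 2 for the interactions in that order. With the gene length offset they were 9 for PC FTAZ:IT-M, 4 for PC FTAZ:PCBM and 0 for the FTAZ:PCBM interaction. Without a filter on low counts they were 3 for HC PTB7-Th:IEICO-4F and 0 for the FTAZ:PCBM interaction, which a mean CPM of at least 5 put at 2. The cause of these moves was not tested. For fits other than DESeq2's Wald test, the share of all tested genes called is not given here. Such moves are thus not shown to be particular to the members. The comparisons of the experiments kept their counts within 1.5 times under all alternatives run.

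Leaving out 1 plant gave 2 to 15 members for PC FTAZ:IT-M, 6 to 13 for PC FTAZ:PCBM, 4 to 24 for PC PTB7-Th:IEICO-4F, 0 for HC FTAZ:IT-M, 0 to 1 for HC FTAZ:PCBM and 1 to 7 for HC PTB7-Th:IEICO-4F. It gave 38 to 51 between the controls, 71 to 73 over the covers, and 2 to 8, 0 to 3 and 1 to 5 for the interactions in the same order. The shares of all tested genes called without each plant are not given here, so these ranges are not shown to be particular to the members. None of the tested values of named genes reversed, and 82 of 650 fell short of the threshold.

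Same-numbered plants deviated from their group means with correlations of −0.166 to 0.189, so no strong shared deviation by number was seen. Weak correlations cannot show whether the plants were paired by design. With the number as a replicate block, the counts were 4, 12 and 17 for the PC filters and 0, 0 and 4 for the HC filters (FTAZ:IT-M, FTAZ:PCBM, PTB7-Th:IEICO-4F), 51 between the controls, 73 over the covers and 3, 1 and 3 for the interactions. Ranked by median CPM, by group medians or by TMM-scaled CPM, the list held the same 100 genes. Ranked per length it held 81 of them, and by the lowest CPM of any plant 85.

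A model of only the groups compared was not run for the 4 covers, which use all groups. Counting error was at most 0.888% of a member's count, and the effects of depth and of the number of plants on the calls were not tested.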
